A study of Homo sapiens with 14 samples.

Results

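KMT2D is a histone methyltransferase that marks enhancers, and some promoters, for gene activity. Its binding was examined at 8 genes of the integrated stress response and of the endoplasmic reticulum (ER) stress response, namely ATF4, DDIT3, TRIB3, CHAC1, SESN2, ASNS, XBP1 and HSPA5. The data came from chromatin immunoprecipitation with sequencing (ChIP-seq) in the HNSCC cell line SCC23. HNSCC stands for squamous cell carcinoma of the head and neck. Members were chosen as the KMT2D peaks whose summit lay inside a gene interval or within 50 kb of it, and 11 of the 13808 peaks in the list met this rule. The 14 labelled samples were KMT2D-WT and KMT2D-KO SCC23 cells, all in low glucose medium, with glucose deprivation lasting 6 h. They covered KMT2D and an Input in KMT2D-WT cells, and, in both genotypes, H3 with its marks H3K27me3, H3K9me3, H3K27ac, H3K4me3 and H3K4me1. Only the peak list of KMT2D in KMT2D-WT cells, 1 sample, entered the results, and the others were not analysed here. None of the labels described a KMT2D library from cells kept in glucose, so binding could not be compared with and without glucose. There were no replicates, and no difference between peaks was tested across samples. Intervals of fragments, fold enrichment and peak counts are 95% Poisson intervals for counting error only, with the background held fixed. Intervals of a share or a median treat the members as independent draws, though they are peaks of 1 library.

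The integrated stress response slows general translation when cells lack amino acids or glucose or when proteins misfold in the ER, while translation of the transcription factor ATF4 rises. ATF4 turns on genes of amino acid supply and redox balance, and under lasting stress also DDIT3, which favours cell death. ER stress works in part through the same route and in part through XBP1 and ATF6, which raise chaperones such as HSPA5. Several short DNA elements are well known in these promoters. The C/EBP-ATF response element is bound by ATF4 together with a C/EBP partner, and the ER stress element is bound by ATF6 with NF-Y.

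KMT2D peaks were found at 5 of the 8 genes, and these were HSPA5, CHAC1, TRIB3, DDIT3 and XBP1. Each of the 5 had a peak at its start, meaning a summit within 1 kb of the 5′ end of the gene interval. For only 2 of them, DDIT3 and TRIB3, did a start peak have a deposited q-value of at most 0.05. Gene intervals were given to the nearest 1 kb, so a summit within about 0.5 kb of the interval's end could lie on either side of the true start. The share of all genes with a start peak was not analysed here. ATF4, SESN2 and ASNS had no peak in their windows. The highest enrichment lay upstream of HSPA5, the ER chaperone BiP, with a fold enrichment of 9.38 over the local background (interval 7.06 to 12.2). Fold enrichment is a ratio taken at the summit, with the ChIP pileup, once scaled and with a pseudocount of 1 added, divided by the background expected there plus the same pseudocount. It is therefore lower than the plain ratio of fragments to background, which was 17.0 at this HSPA5 peak. The second highest lay 47.6 kb upstream of CHAC1, a glutathione-degrading enzyme, at 8.10 (interval 6.05 to 10.7).

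**Figure D1:**
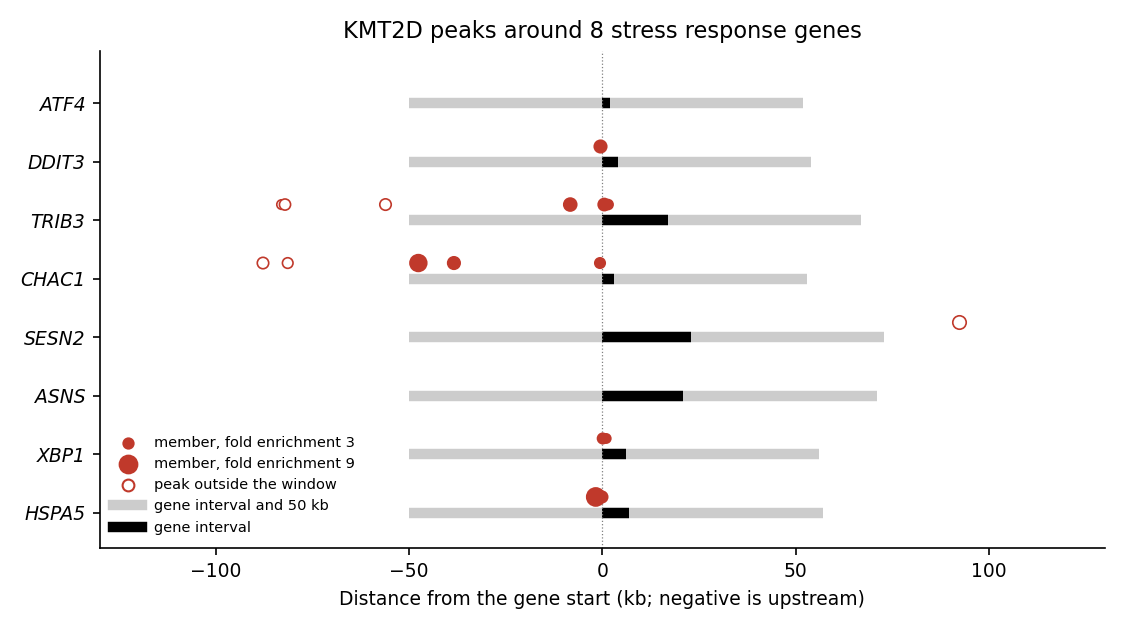
KMT2D peaks around the 8 genes, plotted by the distance of the summit from the gene start in kb, with negative values upstream. Black bars are gene intervals, grey bars add 50 kb on each side, filled circles are the 11 members sized by fold enrichment, and open circles are the 6 other peaks within 100 kb. Each of 5 genes has a member at its start, and ATF4, SESN2 and ASNS have no member.

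The promoters of 5 of the genes are shown because they carry one of the elements or, for DDIT3, because its only member sat at the start. Each sequence holds the 250 bases before the first start that RefSeq lists, written 5′ to 3′ on the strand of the gene. Capitals mark the letters that matched an element, and DDIT3 has no exact match. The coordinates are GRCh38.p14 and could not be laid over the peaks, which are in GRCh37 (hg19). The sequences come from chr15:40953221-40953470 (+ strand) for CHAC1, chr7:97872409-97872658 (− strand) for ASNS, chr9:125241344-125241593 (− strand) for HSPA5, chr22:28800570-28800819 (− strand) for XBP1 and chr12:57520515-57520764 (− strand) for DDIT3.
CHAC1: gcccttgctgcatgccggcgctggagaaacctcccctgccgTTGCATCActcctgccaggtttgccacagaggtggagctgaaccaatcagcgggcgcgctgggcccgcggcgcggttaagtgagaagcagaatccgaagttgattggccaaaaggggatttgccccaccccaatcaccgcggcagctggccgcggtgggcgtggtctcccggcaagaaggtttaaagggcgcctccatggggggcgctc
ASNS: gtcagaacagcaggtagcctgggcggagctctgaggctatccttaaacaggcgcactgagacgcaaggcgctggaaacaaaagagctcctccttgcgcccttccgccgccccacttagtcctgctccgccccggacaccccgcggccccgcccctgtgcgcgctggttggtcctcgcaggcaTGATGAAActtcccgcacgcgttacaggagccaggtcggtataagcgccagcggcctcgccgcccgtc
HSPA5: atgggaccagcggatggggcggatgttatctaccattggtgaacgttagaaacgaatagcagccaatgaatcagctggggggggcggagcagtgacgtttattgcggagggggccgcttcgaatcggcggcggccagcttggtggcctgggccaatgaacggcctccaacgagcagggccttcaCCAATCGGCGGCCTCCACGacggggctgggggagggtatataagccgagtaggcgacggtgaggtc
XBP1: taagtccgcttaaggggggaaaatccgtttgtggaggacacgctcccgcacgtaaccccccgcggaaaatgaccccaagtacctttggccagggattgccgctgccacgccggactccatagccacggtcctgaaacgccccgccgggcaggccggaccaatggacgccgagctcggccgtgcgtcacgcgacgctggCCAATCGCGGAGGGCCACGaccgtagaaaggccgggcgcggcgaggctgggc
DDIT3: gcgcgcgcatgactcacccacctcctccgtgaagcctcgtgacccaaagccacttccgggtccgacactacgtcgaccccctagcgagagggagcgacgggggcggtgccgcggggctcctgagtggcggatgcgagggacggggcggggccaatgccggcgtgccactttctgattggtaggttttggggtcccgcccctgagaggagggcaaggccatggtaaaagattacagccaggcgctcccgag

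The C/EBP-ATF response element was searched on both strands as TGATGNAA. It was found in the promoters of ASNS, where TGATGAAA began 68 bases before the start, and of CHAC1, where the reverse strand matched as TTGCATCA 209 bases before the start. Of all 35116 RefSeq promoters in the table, 3.14% held this element. The ER stress element was searched as CCAAT, then 9 bases, then CCACG. HSPA5 held it 66 bases before the start and XBP1 52 bases before it, against 0.074% of all promoters (26 promoters). Neither element was found in these exact letters in the 250 bases before the listed starts of ATF4, DDIT3, TRIB3 or SESN2. The DDIT3 sequence holds CCAAT, 9 bases and CCACT, which differs from the ER stress element only in the last letter. Sequence farther upstream was not searched, so elements there are not covered. Of the 4 genes with an element, HSPA5, CHAC1 and XBP1 had a KMT2D peak at the start, and ASNS had none. Of the genes without one, DDIT3 and TRIB3 had a start peak, and ATF4 and SESN2 had none. Only the start peaks of DDIT3 and TRIB3 included one with a q-value of at most 0.05. A link between elements and peaks was not tested. The element matches describe the sequence, not sites of binding. Both elements were chosen because they are known in promoters of such genes, so the comparison with all promoters is not a test. A gene was counted if any of its listed promoters matched, whereas the shares are per promoter. The other listed promoters of ASNS and XBP1 held neither element.

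DDIT3 encodes CHOP, the transcription factor that ATF4 induces under lasting stress. Its interval on chromosome 12 (57.910 to 57.914 Mb, − strand) had 1 member, at chr12:57914329-57914838. The peak was 510 bp wide, and its summit lay 0.6 kb upstream of the gene start. It held 22 ChIP fragments (interval 13.8 to 33.3) against 2.88 expected from the background. Fold enrichment was 4.47 (interval 2.98 to 6.53), at the 61.0th percentile of the list, and the deposited q-value was 0.0059. This was an isolated peak, since the nearest other one lay 240.6 kb away.

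XBP1 encodes a transcription factor whose messenger RNA is spliced in the cytoplasm during ER stress. Its interval on chromosome 22 (29.191 to 29.197 Mb, − strand) had 2 members, both at the start and 0.8 kb apart. The peak at chr22:29196762-29196954 was 193 bp wide. Its summit lay 0.1 kb inside the gene interval, too close to the rounded start to tell on which side of it. It had 16 fragments (interval 9.15 to 26.0), a fold enrichment of 3.10 (interval 1.96 to 4.77) and a q-value of 0.429. The peak at chr22:29195994-29196183, 190 bp wide and 1.0 kb inside the gene, had 11 fragments (interval 5.49 to 19.7) and a fold enrichment of 2.47 (interval 1.47 to 4.04), with a q-value of 1. A count of 11 is also the lowest number of any peak in the list. Both XBP1 peaks lay in the lower part of the list, at the 23.7th and 6.05th percentiles of fold enrichment. XBP1 was the only gene with members of which none reached a q-value of 0.05.

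ATF4, the transcription factor at the centre of the integrated stress response, had no member in its 102.0 kb window on chromosome 22 (39.917 to 39.919 Mb, + strand). The nearest peak, at chr22:39704767-39705175, lay 212.0 kb upstream with a fold enrichment of 4.47, 22 fragments and a q-value of 0.0059. On the other side the nearest lay 876.1 kb downstream. At the mean rate of chromosome 22, 9.97 peaks per Mb, a window of this size would hold 1.02 peaks, so a count of 0 says little about the gene. Absence from the list also means only that no peak passed the p-value threshold of the caller.

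TRIB3 encodes a pseudokinase that ATF4 and CHOP induce and that dampens their activity. Its interval on chromosome 20 (0.361 to 0.378 Mb, + strand) had 3 members. The peak at chr20:352524-352803, 280 bp wide and 8.3 kb upstream, had 24 fragments (interval 15.4 to 35.7), a fold enrichment of 4.84 (interval 3.27 to 6.96) and a q-value of 0.000816. The peak at chr20:361254-361996, with its summit 0.5 kb inside the gene interval, was the widest of the members at 743 bp. It had 31 fragments (interval 21.1 to 44.0), a fold enrichment of 4.27 (interval 3.01 to 5.92) and a q-value of 0.00362. The background here was 1.83 times the genome-wide level, which is also the 75th percentile of the list. More fragments therefore gave a lower fold enrichment than at the upstream peak. Counting error in the background is not part of the intervals. The third, at chr20:362229-362483, was 255 bp wide and lay 1.5 kb inside the gene with 13 fragments (interval 6.92 to 22.2), a fold enrichment of 2.84 (interval 1.73 to 4.51) and a q-value of 1. The fold enrichment intervals of all 3 overlapped.

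CHAC1 breaks down glutathione and is a target of ATF4. Its interval on chromosome 15 (41.246 to 41.249 Mb, + strand) had 3 members, all upstream. The peak farthest from the start, at chr15:41198249-41198793 (545 bp), had 46 fragments (interval 33.7 to 61.4) and a q-value of 5.83e-11, and ranked 1211 in the list by fold enrichment. A second peak at chr15:41207368-41207717 (350 bp) lay 38.4 kb upstream, 9.2 kb from the first, with 22 fragments, a fold enrichment of 4.47 (interval 2.98 to 6.53) and a q-value of 0.0059. The start peak at chr15:41245283-41245737 (455 bp) lay 0.6 kb upstream and had a fold enrichment of 3.12 (interval 2.08 to 4.56) with a q-value of 0.291. At CHAC1 the far upstream peak had a higher fold enrichment than the start peak, and their fold intervals did not overlap with the background held fixed. Counting error in the background at the start, 1.83 times the genome-wide level, is not part of these intervals. Over the genome-wide background, the same 22 fragments had an interval of 2.98 to 6.53, which overlaps that of the far peak (6.05 to 10.7). The fragment intervals of the far peak and the start peak (13.8 to 33.3) did not overlap, by a small margin. By gene order in the GRCh38 reference, DLL4, a Notch ligand, and VPS18, a subunit of a vesicle tethering complex, come next upstream of CHAC1. Whether the 2 distal peaks lie closer to another gene than to CHAC1 was not analysed here.

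The start peak of CHAC1, its peak 38.4 kb upstream and the DDIT3 peak shared the same number of fragments, 22 (interval 13.8 to 33.3). The last 2 lay over the genome-wide background and had the same fold enrichment, 4.47. At the CHAC1 start the background was 1.83 times the genome-wide level, equal to 5.26 fragments, and the fold enrichment was 3.12. The q-value at the CHAC1 start was higher than at the other 2 peaks with the same number of ChIP fragments and a higher background.

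SESN2 encodes sestrin 2, a stress-induced inhibitor of mTORC1 signalling that senses leucine. Its 123.0 kb window on chromosome 1 (gene interval 28.586 to 28.609 Mb, + strand) held no peak. The nearest, at chr1:28678021-28678377, lay 92.3 kb downstream of the start with a fold enrichment of 5.20, 26 fragments and a q-value of 0.000816, and the nearest upstream lay 716.4 kb away. ASNS encodes asparagine synthetase, the classical target of the amino acid response. Its 121.0 kb window on chromosome 7 (gene interval 97.481 to 97.502 Mb, − strand) held no peak. The nearest, at chr7:97911418-97911653, lay 409.6 kb upstream with 13 fragments, a fold enrichment of 2.84 and a q-value of 1, and the nearest downstream lay 3175.2 kb away. At the mean rates of their chromosomes, the windows would hold 0.685 peaks at SESN2 and 0.53 at ASNS, so a count of 0 in either says little. ATF4 and ASNS were the 2 genes with no peak within 100 kb.

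HSPA5 encodes BiP, the main HSP70 chaperone of the ER, which holds the ER stress sensors inactive until misfolded proteins draw it away. Its interval on chromosome 9 (127.997 to 128.004 Mb, − strand) had 2 members, 1.6 kb apart. The peak at chr9:128005606-128005867, 262 bp wide and 1.7 kb upstream, had 49 fragments (interval 36.3 to 64.8) against 2.88 expected. Its q-value was 3.3e-13, and its fold enrichment lay at the 94.6th percentile of the list (rank 721). The start peak at chr9:128003972-128004192 was 221 bp wide. Its summit lay 0.1 kb upstream of the gene interval, which is within the rounding of the gene start. It had 20 fragments (interval 12.2 to 30.9), a fold enrichment of 3.80 (interval 2.49 to 5.63) and a q-value of 0.0862. Neither the fragment nor the fold intervals of the pair overlapped, so the upstream peak was higher than the start peak beyond counting error. The next entry upstream of HSPA5 in the reference order is HSPA5-DT, its divergent transcript, followed by GAPVD1.

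**Figure D2:**
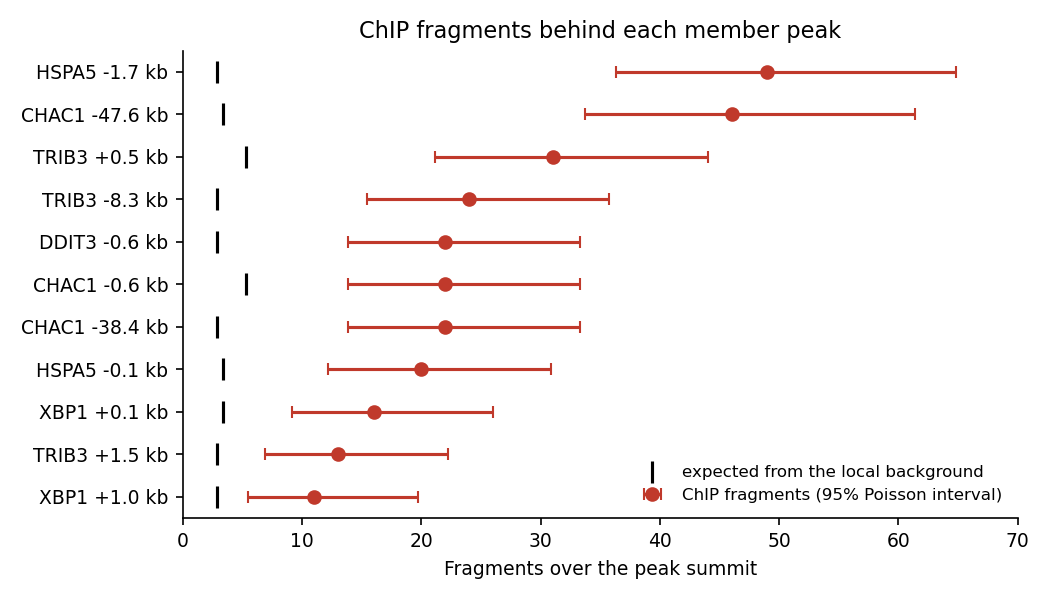
ChIP fragments over the summit of each of the 11 members (points) with 95% Poisson intervals, in order of height. The black ticks are the fragments expected from the local background, between 2.88 and 5.26. The HSPA5 peak at −1.7 kb (49) and the CHAC1 peak at −47.6 kb (46) stand above the others, which lie between 11 and 31.

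Ordered by the highest fold enrichment at each gene, the loci ran HSPA5 (9.38), CHAC1 (8.10), TRIB3 (4.84), DDIT3 (4.47) and XBP1 (3.10). Each neighbouring pair in this order had overlapping intervals, which does not show that the pair was equal, and the differences were not tested. HSPA5 did not overlap TRIB3, DDIT3 or XBP1, and CHAC1 did not overlap XBP1. The place of CHAC1 rests on its peak 47.6 kb upstream, which may lie closer to another gene. With a window of 25 kb the highest value at CHAC1 was 3.12, near that of XBP1. Ordered by the start peaks alone, DDIT3 (4.47) and TRIB3 (4.27) came first, followed by HSPA5 (3.80), CHAC1 (3.12) and XBP1 (3.10), and all of these intervals overlapped.

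Of the 11 members, 6 had a deposited q-value of at most 0.05 (54.5%, Wilson interval 28.0 to 78.7%), against 58.5% of all peaks in the list. The same 6 members were at or below 0.01, against 47.7% of the list. Both shares of the list lie inside the interval of the members. Of the genes with a start peak, 2 (DDIT3 and TRIB3) had one at a q-value of at most 0.05. The start peaks of HSPA5, CHAC1 and XBP1 all had a q-value above 0.05.

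Median fold enrichment of the members was 4.27 (interquartile range 3.11 to 4.65), against 3.93 (3.14 to 5.39) in the list. A distribution-free interval for the members' median ran from 2.84 to 8.10 and contained the median of the list. Only the strongest HSPA5 and CHAC1 peaks exceeded the 75th percentile of the list, and 5 members lay below its median. The median number of fragments was 22 in the members and 25 in the list, and the median widths were 280 and 341 bp.

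**Figure D3:**
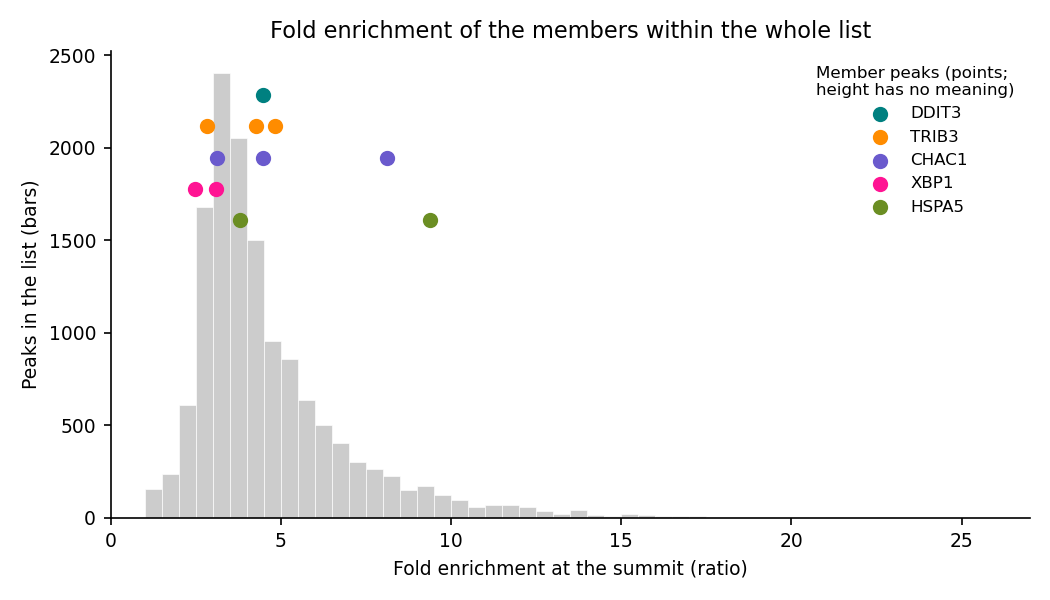
Fold enrichment at the summit (ratio, x axis) for all 13808 peaks as a histogram (grey bars, number of peaks on the y axis) and for the 11 members as points coloured by gene, whose height has no meaning. The HSPA5 peak at 9.38 and the CHAC1 peak at 8.10 lie in the upper tail, and the other members lie between 2.47 and 4.84.

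By position, 8 members had their summit within 2 kb of the gene start and 3 lay farther away. The share of the whole list this close to a gene start was not analysed here. The 8 near peaks had a median fold enrichment of 3.46, and 3 of them had a q-value of at most 0.05. The 3 distal peaks, from only 2 genes, CHAC1 and TRIB3, ranged from 4.47 to 8.10 with a median of 4.84, and all 3 had a q-value of at most 0.05. The highest member, at HSPA5 (9.38), was counted as near at 1.7 kb. With distances uncertain by about 0.5 kb, it may lie on either side of the 2 kb limit. The difference between near and distal peaks was not tested. By the rounded intervals, summits lay upstream of the gene start for 7 members and downstream for 4, and no member lay past the far end of its gene. The side is not settled for the HSPA5 and XBP1 summits 0.1 kb from the start or the TRIB3 summit 0.5 kb from it. Distances are uncertain by about 0.5 kb. Another peak lay within 10 kb for 9 of the 11 members, against 53.0% of the peaks on chromosomes 1 to 22 and X. Each of the 9 had other members as its neighbours, at CHAC1, HSPA5, XBP1 or TRIB3, so they are not 9 separate observations. The exceptions were the DDIT3 peak and the start peak of CHAC1. Runs of at least 3 peaks joined by such gaps held 3 of the 11 members, all at TRIB3, against 30.0% of the peaks on those chromosomes.

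Together the 8 windows spanned 0.883 Mb and held 12.5 peaks per Mb (Poisson interval 6.22 to 22.3), against 4.49 per Mb on chromosomes 1 to 22 and X. At the rates of their own chromosomes they would hold 5.48 peaks, and the interval around the 11 found ran from 5.49 to 19.7. Its lower limit is barely above 5.48. Both intervals treat peaks as independent, but 9 of the 11 members had another peak within 10 kb, so they are likely too narrow. The chromosome rates include sequence with few genes, so these are not like regions. The difference was not tested and cannot be read as particular to stress genes. At the edge of the rule, the outermost member was the CHAC1 peak at 47.6 kb. The closest peak left out lay 56.1 kb upstream of TRIB3, at chr20:304859-305372, with a fold enrichment of 3.77, 20 fragments and a q-value of 0.0943. The members' local background ranged from 1.00 to 1.83 times that of the genome as a whole, whereas 18.6% of the list had at least 2 times that background.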

How the data were processed

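The deposited list held 1 line per KMT2D peak. The authors aligned the reads with Bowtie2 to GRCh37 (hg19), used those with a unique position, and ran MACS2 with a threshold on the p-value, against a control that the methods do not name (the control). They deposited the fold enrichment as a ratio at the summit, the −log10 of the p-value and of the q-value, and a score equal to the whole part of 10 times the −log10 p. Summit offsets located the peaks.

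From these values, the background and the number of ChIP fragments at every summit were worked back, since MACS2 derives both columns from them. The scale was 0.381 per ChIP fragment and the genome-wide background 2.88 fragments. Rebuilt and deposited −log10 p differed by at most 0.000561 over the 13808 peaks. The fragment number at each peak was chosen to make this difference smallest, so it measures fit and is not a separate check. The rebuilding was also run on simulated data, with the outcome not given here. Counts had exact Poisson intervals and shares Wilson intervals, at 95%. Total read depth is not in the list and was not analysed here.

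Gene intervals were given to the nearest 1 kb in GRCh37, so distances are uncertain by about 0.5 kb. Strand, promoters and neighbour order came from RefSeq (GRCh38.p14), in which all 8 genes matched, and no coordinate was converted. All 8 genes and every member were named. Peaks at 20 further pathway genes need a GRCh37 annotation and were not analysed here. The members and lists were chosen with earlier results of these data known. Alternatives were windows of 25 and 100 kb, q-value thresholds, a filter on background, other definitions of a start peak and the whole 300 bases of each promoter. Calculations used scipy 1.17.1, numpy 2.4.6 and pandas 2.3.3 under Python 3.11.15, with plots from matplotlib 3.10.9.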

Additional observations from a re-analysis of the deposited data

How the results depend on the processing

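Of 35 alternative values, 30 stayed within their limits, 5 moved and 0 reversed. Some of the 30 could not have moved. No member had a background of 2 times the genome-wide level or more, so that filter removed none. A wider window cannot lower a highest value, nor can a wider start distance lower a count of start peaks. The limits also differed by result. The q-value thresholds moved the number of members, while the density of 6.80 per Mb stayed inside its Poisson interval (6.22 to 22.3). The number of member peaks, 11, became 17 with a window of 100 kb, 6 under the q-value threshold of 0.05 and 6 under that of 0.01. Genes with a start peak numbered 2 under the 0.05 threshold, against 5. The highest fold enrichment at CHAC1 was 3.12 with a window of 25 kb, against 8.10, because both distal peaks lie outside that window. Over the alternatives, the share of members with a q-value of at most 0.05 ranged from 44.4 to 54.5%, the median fold enrichment from 3.77 to 4.65, and the density from 6.80 to 18.6 peaks per Mb. The start peaks rest on 11 to 31 fragments, and the effect of sequencing depth on which peaks were called was not analysed here. With 1 library, variation between cultures or immunoprecipitations is not measured. No paired analysis was possible because only 1 sample was analysed here and no result came from a test.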
